A study of Rattus norvegicus with 10 samples.

Results

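The genes described here mark the thick ascending limb, the segment of the kidney tubule that climbs from the medulla back to the glomerulus of its own nephron. They are the 10 rows of the deposited table named Slc12a1, Umod, Cldn10, Cldn16, Cldn19, Sostdc1, Cyfip2, Casr, Egf and Ptger3, out of 32545 genes, and all 10 passed the filter on low values. RNA sequencing of left kidney cortex compared 5 libraries of Kcnj16_m1 genotype with 5 libraries of SS_WT genotype. All rats were males on the Dahl salt-sensitive background, a line prone to hypertension on a high-salt diet, and were studied at 11 to 12 weeks of age. The series title calls the mutants Kcnj16 knockouts, and the labels say nothing further of the m1 allele. The Kcnj16 product is a potassium channel subunit found in the basolateral membrane of tubule cells. Its transcript averaged 326 ± 13.3 FPKM in Kcnj16_m1 and 347 ± 21.6 FPKM in SS_WT libraries (SD, n = 5 each), which cannot check the labels. FPKM scales the fragments of a gene to its length and to the depth of the library, and ± denotes the SD over the 5 libraries of a group throughout.

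The thick ascending limb takes up sodium, potassium and chloride from the urine through the cotransporter NKCC2, the product of Slc12a1 and the target of loop diuretics. Potassium recycles into the lumen through an apical channel, chloride leaves through basolateral channels, and the resulting voltage drives calcium and magnesium between the cells through claudins. The segment also secretes uromodulin, the most abundant protein of normal urine, and makes the precursor of epidermal growth factor. Its transport is restrained by the calcium-sensing receptor and by prostaglandin E2, and promoted by vasopressin.

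Of the 10 genes, Sostdc1, Cyfip2, Egf and Cldn10 were higher in the Kcnj16_m1 libraries, and none was lower (limma, Benjamini-Hochberg adjusted p under 0.05). Across all 13971 genes tested, 28.5% passed in either direction and 14.6% passed as higher and 14.0% as lower. For Sostdc1, Cyfip2 and Egf every mutant library was above every SS_WT library, which held for 9.88% of all genes tested, while 9.34% were separated the other way. The deposited table places Sostdc1 (ENSRNOG00000005770) at 55812747 to 55817066 on chromosome 6, Cyfip2 (ENSRNOG00000006557) at 31278746 to 31419235 on chromosome 10, Egf (ENSRNOG00000053979) at 68820615 to 68895920 on chromosome 2 and Cldn10 (ENSRNOG00000010085) at 104026601 to 104115748 on chromosome 15, in a build that it does not name. Slc12a1, Umod, Cldn16, Cldn19, Casr and Ptger3 did not pass. The median log2 fold change was 0.24 over the 10 genes and 0.01 over all genes tested. In cortex RNA, fewer cells of a type and less RNA per cell cannot be told apart.

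**Figure D1:**
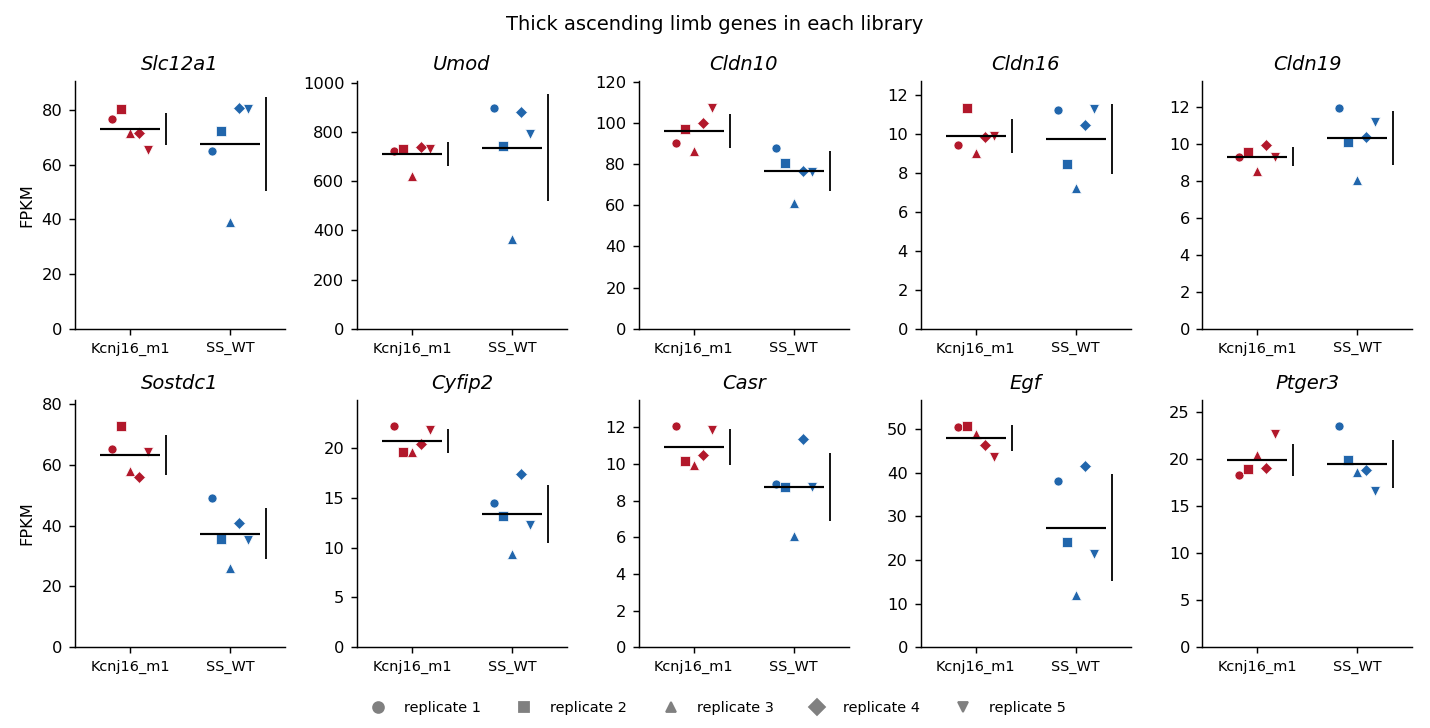
FPKM of the 10 thick ascending limb genes in each library, with Kcnj16_m1 left and SS_WT right in each panel; the horizontal line is the group mean, the vertical line spans 1 SD to each side, and the point shape gives the replicate. Sostdc1, Cyfip2 and Egf separate the groups, while for Slc12a1 and Umod the replicate 3 triangle of SS_WT, at 39.1 and 365 FPKM, lies far below every other point.

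Slc12a1 stood at 76.6, 80.2, 71.3, 71.4 and 65.2 FPKM in Kcnj16_m1 replicates 1 to 5, against 64.8, 72.2, 39.1, 80.8 and 80.4 FPKM in SS_WT replicates 1 to 5. The groups overlapped, and a single SS_WT library lay far below the rest. The log2 fold change of Slc12a1 was 0.15, with a 95% interval from -0.23 to 0.54 (limma adjusted p = 0.534). Without SS_WT replicate 3 it was -0.03.

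Umod, which encodes uromodulin, was the most abundant of the 10 transcripts. It stood at 723, 733, 623, 737 and 733 FPKM in Kcnj16_m1 replicates 1 to 5, against 899, 744, 365, 882 and 794 FPKM in SS_WT replicates 1 to 5. Of the SS_WT libraries 4 were above every mutant library and replicate 3 was below every one. The log2 fold change of Umod was 0.01, with a 95% interval from -0.46 to 0.48 (limma adjusted p = 0.973). Without SS_WT replicate 3 it was -0.22 (limma adjusted p = 0.0594). The direction of Umod thus turned with a single library.

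Of the 3 claudins, Cldn10 passed and Cldn16 and Cldn19 did not; whether their changes differ from each other was not tested. Claudins are tight junction proteins that seal or open the path between cells, and in this segment claudin-10 forms a sodium pore while claudin-16 and claudin-19 together pass calcium and magnesium. Cldn10 stood at 90.3, 96.9, 86.4, 100.3 and 108 FPKM in Kcnj16_m1 replicates 1 to 5, against 88.0, 80.8, 61.2, 76.9 and 76.3 FPKM in SS_WT replicates 1 to 5. The groups touched, since SS_WT replicate 1 lay above mutant replicate 3. The rise of Cldn10 was 0.33 on the log2 scale (SE 0.09, limma adjusted p = 0.0222). For the log2 fold change of Cldn10 the limma adjusted p was 0.0515 without Kcnj16_m1 replicate 4 and 0.0514 without Kcnj16_m1 replicate 5. The deposited row sums all Cldn10 transcripts, and the proximal tubule uses another form of this gene from an alternative first exon.

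Cldn16 stood at 9.43, 11.4, 9.05, 9.85 and 9.91 FPKM in Kcnj16_m1 replicates 1 to 5, against 11.3, 8.47, 7.24, 10.5 and 11.3 FPKM in SS_WT replicates 1 to 5. Its groups overlapped throughout, and the log2 fold change of Cldn16 was 0.04, between -0.22 and 0.30 at 95% (limma adjusted p = 0.834). Cldn19 stood at 9.30, 9.54, 8.53, 9.93 and 9.28 FPKM in Kcnj16_m1 replicates 1 to 5, against 12.0, 10.1, 8.04, 10.3 and 11.2 FPKM in SS_WT replicates 1 to 5. In SS_WT all libraries but replicate 3 were above the highest mutant library. The log2 fold change of Cldn19 was -0.13, with a 95% interval from -0.33 to 0.07 (limma adjusted p = 0.312). Without SS_WT replicate 3 it was -0.21 and passed (limma adjusted p = 0.0376).

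The balance between the claudins was also read within each library. The FPKM ratio of Cldn10 to Cldn19 ran from 9.71 to 11.6 in Kcnj16_m1 and from 6.84 to 7.99 in SS_WT libraries, with no overlap. The ratio of Cldn10 to Cldn16 ran from 8.53 to 10.8 in Kcnj16_m1 and from 6.75 to 9.54 in SS_WT libraries. The ratio of Cldn16 to Cldn19, the partners of the divalent cation pore, was 1.07 ± 0.0771 in Kcnj16_m1 and 0.941 ± 0.0754 in SS_WT libraries. These 3 ratios were formed after the values were seen and were not tested.

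Egf had the largest fold change of the 10 genes. Its precursor protein sits in the membrane of thick ascending limb and distal convoluted tubule cells, and the released growth factor stimulates magnesium uptake further along the tubule. Egf stood at 50.6, 50.7, 48.8, 46.5 and 43.6 FPKM in Kcnj16_m1 replicates 1 to 5, against 38.2, 24.1, 12.1, 41.6 and 21.3 FPKM in SS_WT replicates 1 to 5. Every mutant library was above every SS_WT library, and the SS_WT libraries were widely spread. Egf averaged 48.1 ± 3.02 FPKM in Kcnj16_m1 and 27.5 ± 12.3 FPKM in SS_WT libraries (log2 fold change 0.92, SE 0.27, limma adjusted p = 0.0275). Without SS_WT replicate 3 the log2 fold change of Egf was 0.66 (limma adjusted p = 0.0226). The adjusted p of Egf lay between 0.0508 and 0.0614 when Kcnj16_m1 replicate 1, 2, 3 or 4 or SS_WT replicate 2 or 5 was left out.

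Sostdc1 encodes a secreted antagonist of bone morphogenetic proteins that also modulates WNT signalling. It stood at 65.1, 72.7, 57.9, 55.9 and 64.0 FPKM in Kcnj16_m1 replicates 1 to 5, against 49.0, 35.5, 26.1, 40.7 and 35.2 FPKM in SS_WT replicates 1 to 5. The lowest mutant library was above the highest SS_WT library. Sostdc1 rose to 63.1 ± 6.63 FPKM in Kcnj16_m1, against 37.3 ± 8.39 FPKM in SS_WT libraries (log2 fold change 0.77, SE 0.14, limma adjusted p = 0.00299).

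Cyfip2 encodes a subunit of the WAVE complex, which starts actin branching at the cell edge. It stood at 22.2, 19.6, 19.6, 20.4 and 21.8 FPKM in Kcnj16_m1 replicates 1 to 5, against 14.5, 13.2, 9.41, 17.4 and 12.3 FPKM in SS_WT replicates 1 to 5. The groups did not overlap, and the mutant libraries lay close together. Cyfip2 rose to 20.7 ± 1.21 FPKM in Kcnj16_m1, against 13.3 ± 2.92 FPKM in SS_WT libraries (log2 fold change 0.64, SE 0.13, limma adjusted p = 0.00466). Sostdc1 and Cyfip2 were past the threshold in all 20 alternatives tried. Cyfip2 overlaps the gene Fndc9 on the other strand, which reached 0.161 FPKM at most.

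The promoters of the genes that rose are shown because these genes moved in the same direction, with that of Umod, the most abundant of the 10, for comparison. The RefSeq promoter table of build GRCr8 held 9 of the 10 genes, and Sostdc1 had no entry there. Each line gives the 250 bases before the annotated start, 5′ to 3′ on the strand of the gene. Capitals mark matches, on either strand, to 5 short motifs. The general promoter motifs searched were the TATA box, with the letters TATAAA, the CCAAT box, named for its own letters, and the GC box, with the letters GGGCGG. The motifs of tubule transcription factors were the oestrogen-related receptor site, with the letters AAGGTCA, and the AP-2 site, with the letters GCCNNNGGC. The windows are chr15:102269608-102269857 on the plus strand for Cldn10, chr10:31242441-31242690 on the minus strand for Cyfip2, chr2:220976298-220976547 on the minus strand for Egf and chr1:183261017-183261266 on the minus strand for Umod.
Cldn10: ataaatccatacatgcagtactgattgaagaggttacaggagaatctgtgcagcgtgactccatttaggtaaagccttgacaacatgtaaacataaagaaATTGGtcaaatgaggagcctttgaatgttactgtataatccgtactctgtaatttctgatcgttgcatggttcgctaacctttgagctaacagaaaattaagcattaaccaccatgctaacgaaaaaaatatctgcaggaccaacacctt
Cyfip2: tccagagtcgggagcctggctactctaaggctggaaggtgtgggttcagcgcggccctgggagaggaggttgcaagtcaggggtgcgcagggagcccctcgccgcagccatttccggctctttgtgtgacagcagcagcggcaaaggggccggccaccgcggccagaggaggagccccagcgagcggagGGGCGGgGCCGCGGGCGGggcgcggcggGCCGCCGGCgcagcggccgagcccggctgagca
Egf: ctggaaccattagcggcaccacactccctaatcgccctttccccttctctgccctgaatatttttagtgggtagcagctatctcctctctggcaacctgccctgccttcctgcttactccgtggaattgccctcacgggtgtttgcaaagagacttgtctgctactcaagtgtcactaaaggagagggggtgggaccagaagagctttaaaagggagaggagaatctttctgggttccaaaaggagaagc
Umod: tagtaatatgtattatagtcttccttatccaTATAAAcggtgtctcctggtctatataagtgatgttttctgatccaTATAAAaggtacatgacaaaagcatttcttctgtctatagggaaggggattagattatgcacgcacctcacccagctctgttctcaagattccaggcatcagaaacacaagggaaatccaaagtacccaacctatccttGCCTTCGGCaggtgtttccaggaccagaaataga

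The 3 promoters of genes that rose shared none of these matches. That of Cldn10 held 1 CCAAT motif, 150 to 146 bases before the start, a motif present in 34% of all 33469 RefSeq promoters. That of Cyfip2 held 2 GC boxes and 2 AP-2 motifs, of which a GC box and an AP-2 motif overlap, and its GC content was 74.0%, against a median of 51.2% over all promoters. That of Egf held none of the 5 motifs. That of Umod held 2 TATA boxes and 1 AP-2 motif, which were present in 12.9% and 12.6% of all promoters. Ptger3 and Cldn16 held the AP-2 motif too. Both Slc12a1 entries held CCAAT, Ptger3 and Cldn19 held the GC box, found in 30.5%, and none of the 9 genes held AAGGTCA, found in 3.99%. These are matches of letters in a short window and not tested sites. Which first exon of Cldn10 its window precedes was not determined.

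The 2 receptors of the list restrain salt transport in this segment. Casr, which encodes the calcium-sensing receptor, stood at 12.1, 10.2, 9.95, 10.5 and 11.8 FPKM in Kcnj16_m1 replicates 1 to 5, against 8.89, 8.71, 6.09, 11.3 and 8.75 FPKM in SS_WT replicates 1 to 5. All SS_WT libraries but replicate 4 were below every mutant library. The log2 fold change of Casr was 0.32, between 0.04 and 0.61 at 95%, and missed the threshold (limma adjusted p = 0.0862). Without SS_WT replicate 4 it was 0.42 and passed (limma adjusted p = 0.0216). Ptger3, which encodes the prostaglandin E2 receptor EP3, stood at 18.3, 18.9, 20.4, 19.0 and 22.7 FPKM in Kcnj16_m1 replicates 1 to 5, against 23.5, 19.9, 18.6, 18.9 and 16.6 FPKM in SS_WT replicates 1 to 5. Its groups overlapped over nearly their whole range. The log2 fold change of Ptger3 was 0.03, with a 95% interval from -0.16 to 0.23 (limma adjusted p = 0.816).

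**Figure D2:**
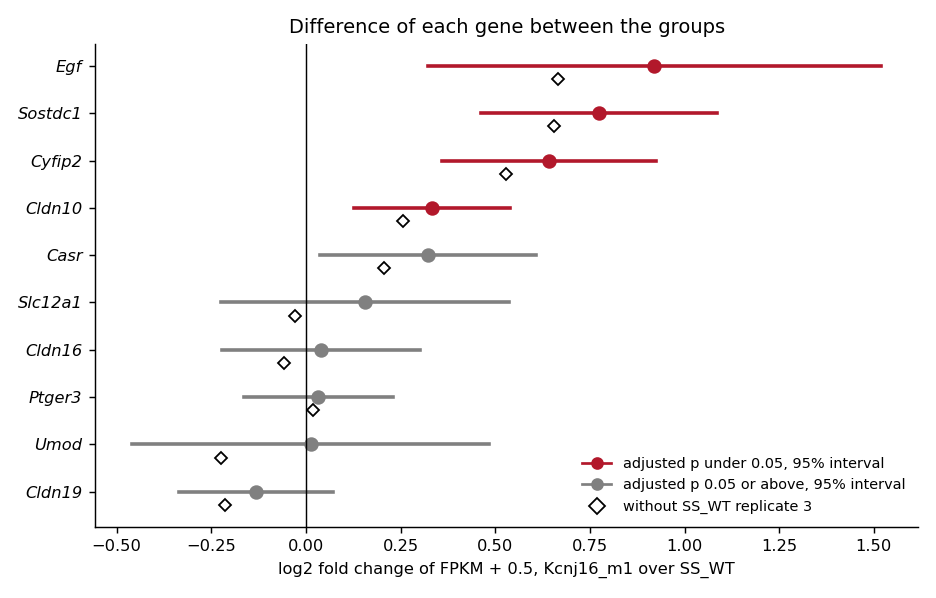
Log2 fold change of FPKM + 0.5, Kcnj16_m1 over SS_WT, for each of the 10 genes; filled points and lines are the estimate and its 95% interval, red where the adjusted p was under 0.05, and open diamonds are the estimate without SS_WT replicate 3. The estimates run from -0.13 for Cldn19 to 0.92 for Egf, and the diamonds lie to the left of all of them, those of Umod and Cldn19 at -0.22 and -0.21.

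Whether the genes changed in proportion to each other was examined within each library, where the ratio to Slc12a1 cancels the scaling of the library. An exact two-sided permutation test (252 arrangements of the group labels) was applied to the 9 ratios. Its smallest possible p was 0.00794. The ratio of Egf to Slc12a1 ran from 0.632 to 0.685 in Kcnj16_m1 and from 0.265 to 0.590 in SS_WT libraries (log2 difference 0.77, exact permutation p = 0.00794, adjusted p = 0.0357). The ratio of Sostdc1 to Slc12a1 was 0.867 ± 0.0792 in Kcnj16_m1 and 0.572 ± 0.135 in SS_WT libraries, and was higher in all mutant libraries (log2 difference 0.62, exact permutation p = 0.00794, adjusted p = 0.0357). The ratio of Cyfip2 to Slc12a1 was 0.286 ± 0.0324 in Kcnj16_m1 and 0.203 ± 0.0353 in SS_WT libraries (log2 difference 0.49, exact permutation p = 0.0159, adjusted p = 0.0476). These 3 transcripts therefore differed between the groups relative to that of the cotransporter as well.

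The ratio of Cldn10 to Slc12a1 was 1.33 ± 0.200 in Kcnj16_m1 and 1.19 ± 0.269 in SS_WT libraries, and did not pass (exact permutation p = 0.349, adjusted p = 0.449). For Umod, Cldn16, Casr and Ptger3 the adjusted p lay between 0.371 and 0.635, and that of Cldn19 was 0.161 with a log2 difference of -0.29. With Umod in place of Slc12a1 as the denominator, Sostdc1, Cyfip2 and Egf again passed, each with an exact permutation p of 0.00794 and an adjusted p of 0.0238. With 1 library fewer, the number of ratios to Slc12a1 past the threshold was 0 without any one of the Kcnj16_m1 libraries, where the adjusted p of Egf, Sostdc1 and Cyfip2 was 0.0714. It was 2 without SS_WT replicate 2 or 5, where Cyfip2 missed the threshold, and 3 without SS_WT replicate 1, 3 or 4.

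**Figure D3:**
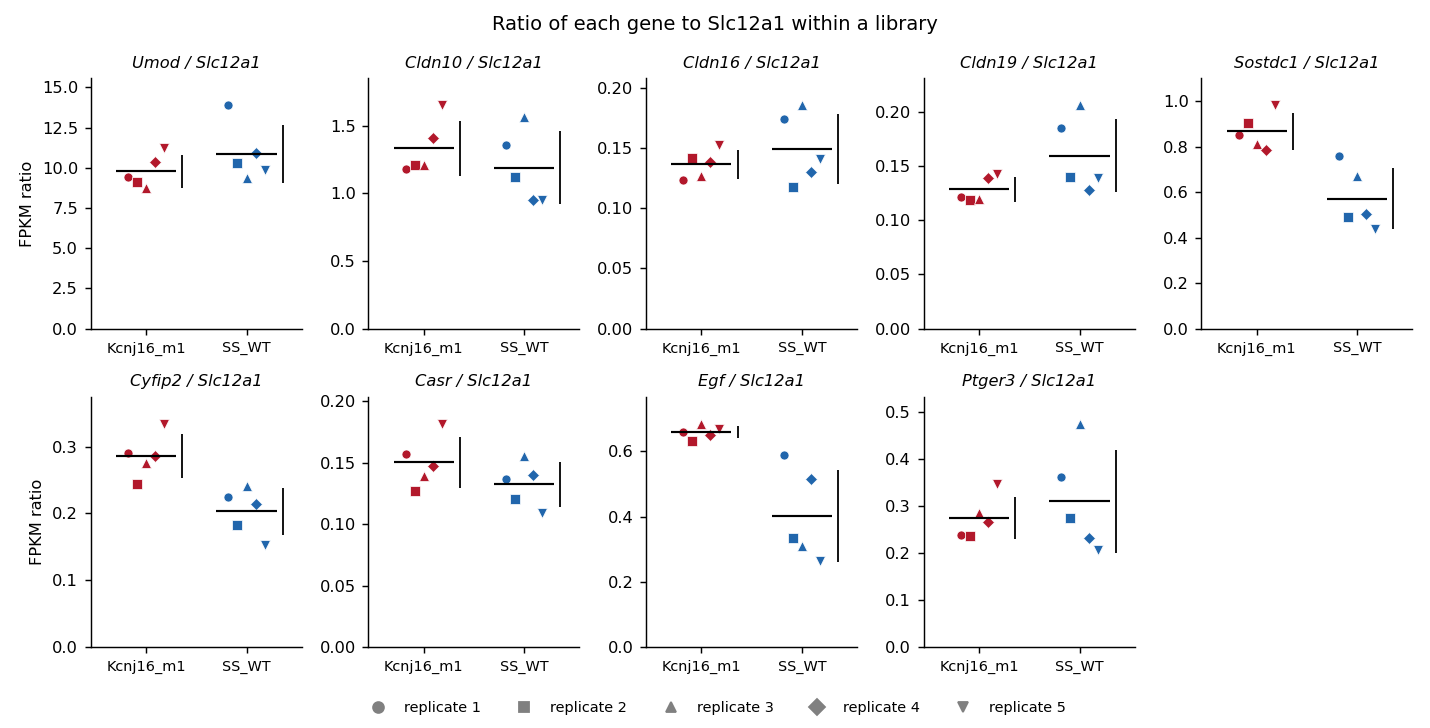
FPKM of 9 thick ascending limb genes divided by that of Slc12a1 in the same library, with Kcnj16_m1 left and SS_WT right; lines and point shapes are as in the plot of FPKM by library. The ratios of Egf, Sostdc1 and Cyfip2 do not overlap between the groups, and the 5 Egf ratios of Kcnj16_m1 lie within 0.632 to 0.685.

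SS_WT replicate 3 was the lowest SS_WT library for 9 of the 10 genes, the exception being Ptger3. Among all genes tested, 25.9% had their lowest SS_WT value in that library. The summed FPKM of the 10 genes was 955 to 1103 in the Kcnj16_m1 libraries, against 552 in SS_WT replicate 3 and 1017 to 1209 in the other SS_WT libraries. SS_WT replicate 1 was the highest SS_WT library for 5 of the genes and SS_WT replicate 4 for 4.

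Markers of tubular injury also differed between the groups and among the SS_WT libraries. On a list of 12 such genes, 0 of 11 tested members were higher and 8 were lower in Kcnj16_m1 (limma, adjusted p under 0.05). The lower share was 72.7%, against 14.0% over all genes tested. None of the 12 injury genes was at 0 in all libraries. Their summed FPKM, which in SS_WT came mostly from Spp1, the gene of osteopontin, ran from 289.5 to 366 in Kcnj16_m1 and from 651 to 3317 in SS_WT libraries. In SS_WT replicates 4, 1, 5, 2 and 3 the sum was 651, 1392, 1621, 2141 and 3317 FPKM, and Egf in these same libraries stood at 41.6, 38.2, 21.3, 24.1 and 12.1 FPKM. Umod there stood at 882, 899, 794, 744 and 365 FPKM, and Slc12a1 at 80.8, 64.8, 80.4, 72.2 and 39.1 FPKM. The library with the highest injury sum had the lowest value of all 3 genes, but Slc12a1 did not otherwise follow the order of the sums. Between the groups, Umod was lower in all Kcnj16_m1 libraries, where the injury sum was low, than in 4 of the 5 SS_WT libraries. Whether injury has a part in the differences between the groups was not tested, and 5 libraries are too few for a correlation.

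**Figure D4:**
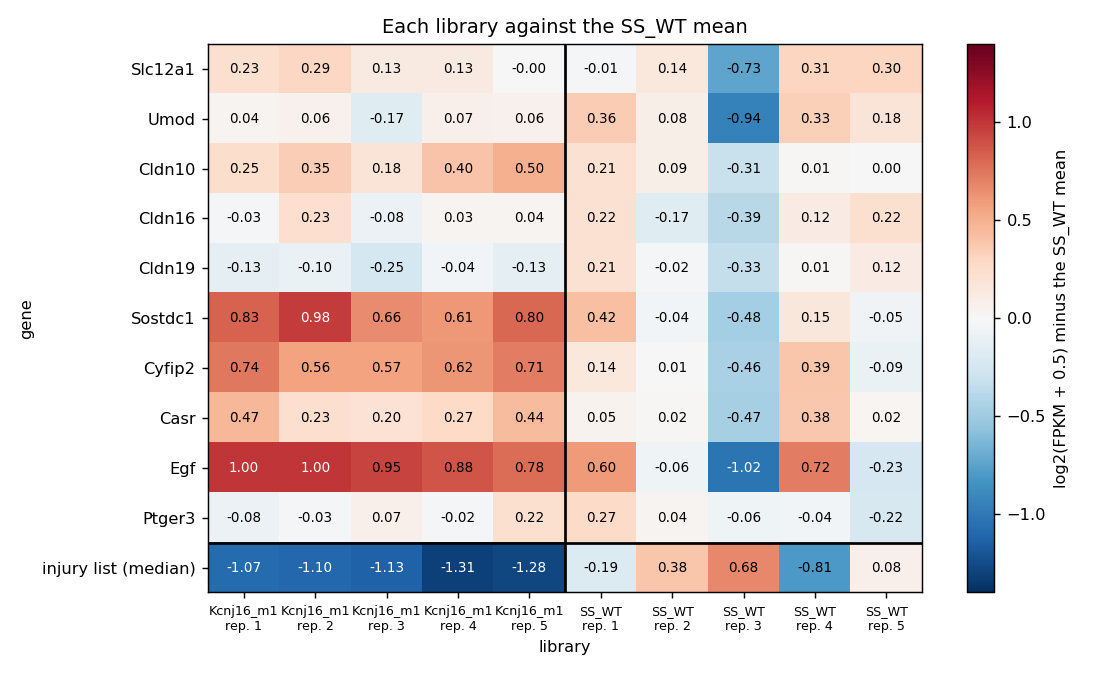
Log2(FPKM + 0.5) of each thick ascending limb gene minus its SS_WT mean, by library, with the median over the tested injury markers in the bottom row; columns give the 5 Kcnj16_m1 libraries and then the 5 SS_WT libraries. SS_WT replicate 3 has the lowest value of Egf at -1.02 and of Umod at -0.94 and the highest injury median at 0.68, while all Kcnj16_m1 libraries have injury medians of -1.07 or lower and Egf values of 0.78 or higher.

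FPKM levels, which are per length, set the 10 genes in nearly the same order in both groups. Umod averaged 709.8 ± 48.8 FPKM in Kcnj16_m1 and 737 ± 218 FPKM in SS_WT libraries, well above Cldn10 with 96.3 ± 8.30 FPKM in Kcnj16_m1 and 76.6 ± 9.83 FPKM in SS_WT libraries. Slc12a1, Sostdc1 and Egf followed in both groups. In Kcnj16_m1 the ranges of Cldn10 and Slc12a1, and of Sostdc1 and Egf, did not overlap, whereas in SS_WT they did. Cyfip2 and Ptger3 came next with overlapping ranges, and Casr, Cldn16 and Cldn19 were lowest, with ranges that overlapped from one gene to the next in either group. Casr was eighth in Kcnj16_m1 and last in SS_WT.

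The spread between libraries was smaller in the mutants for all 10 genes. The coefficient of variation ran from 5.51% to 10.5% in Kcnj16_m1 and from 12.8% to 44.6% in SS_WT libraries. Over all genes tested its median was 8.65% in Kcnj16_m1 and 11.9% in SS_WT libraries, and 69.7% of genes varied more in SS_WT. For Umod it was 6.88% in Kcnj16_m1 and 29.5% in SS_WT libraries. The SS_WT coefficients include replicate 3, the lowest SS_WT library for 9 of the 10 genes. Umod stood at 365 FPKM in that library and at 744 to 899 FPKM in the other SS_WT libraries. No coefficient was computed without SS_WT replicate 3, so how far the wider SS_WT spread rests on that library was not determined. The difference in spread between the groups is given as a description, with no test.

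Genes that work with NKCC2 in salt transport and its control by WNK kinases went up in part. Of 19 tested members, 7 were higher (36.8%) and 0 lower, with a median log2 fold change of 0.27. Over all genes tested 14.6% were higher and 14.0% lower. The number of higher genes ran from 6 (without SS_WT replicate 5) to 10 (with array weights, or without SS_WT replicate 4). Mal, which encodes a membrane proteolipid that holds NKCC2 at the cell surface, rose to 69.9 ± 1.42 FPKM in Kcnj16_m1, against 53.3 ± 4.01 FPKM in SS_WT libraries (log2 fold change 0.39, limma adjusted p = 0.000811). Bsnd, which encodes the channel subunit barttin, and Slc9a3, a sodium-proton exchanger also strong in the proximal tubule, rose by log2 fold changes of 0.45 and 0.48. Stk39, Oxsr1 and Kcnj1 were chosen after their values were seen. Stk39, a kinase that activates NKCC2, averaged 10.3 ± 0.432 FPKM in Kcnj16_m1 and 7.53 ± 1.56 FPKM in SS_WT libraries (limma adjusted p = 0.0174). Oxsr1, another kinase of the list, averaged 16.3 ± 0.945 FPKM in Kcnj16_m1 and 16.3 ± 0.961 FPKM in SS_WT libraries (limma adjusted p = 0.970). Kcnj1, the apical potassium channel, averaged 72.4 ± 3.13 FPKM in Kcnj16_m1 and 56.4 ± 13.7 FPKM in SS_WT libraries (limma adjusted p = 0.0841).

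Among receptors and enzymes that act on transport in this segment, 11 of 19 tested genes were higher and 1 was lower. The shares were 57.9% higher and 5.26% lower, against 14.6% and 14.0% over all genes tested. The median log2 fold change of the list was 0.35. The number higher ran from 10 to 12 over the alternatives. Avpr2, the vasopressin receptor, rose to 13.7 ± 0.922 FPKM in Kcnj16_m1, against 8.28 ± 1.44 FPKM in SS_WT libraries (log2 fold change 0.71, SE 0.11, limma adjusted p = 0.00119). Adcy6, the adenylyl cyclase through which it acts, rose by 0.50 and Pth1r, the parathyroid hormone receptor, by 0.35 on the log2 scale. Ptgs2, the inducible cyclooxygenase of the macula densa, ran from 3.82 to 4.66 FPKM in Kcnj16_m1, against 1.15 to 1.26 FPKM in SS_WT libraries (limma adjusted p = 1.47e-06). On the same list the prostaglandin receptor genes Ptger1 and Ptger4 had log2 fold changes of 0.40 and 0.21 (limma adjusted p = 0.0116 and 0.315) beside the 0.03 of Ptger3. Hpgd, which encodes the enzyme that breaks prostaglandins down, fell by 0.65 on the log2 scale (limma adjusted p = 0.0101). Ptger1, Ptger4 and Hpgd were chosen after their values were seen. Avpr2, Ptgs2 and Pth1r are also used by other cells of the cortex.

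**Figure D5:**
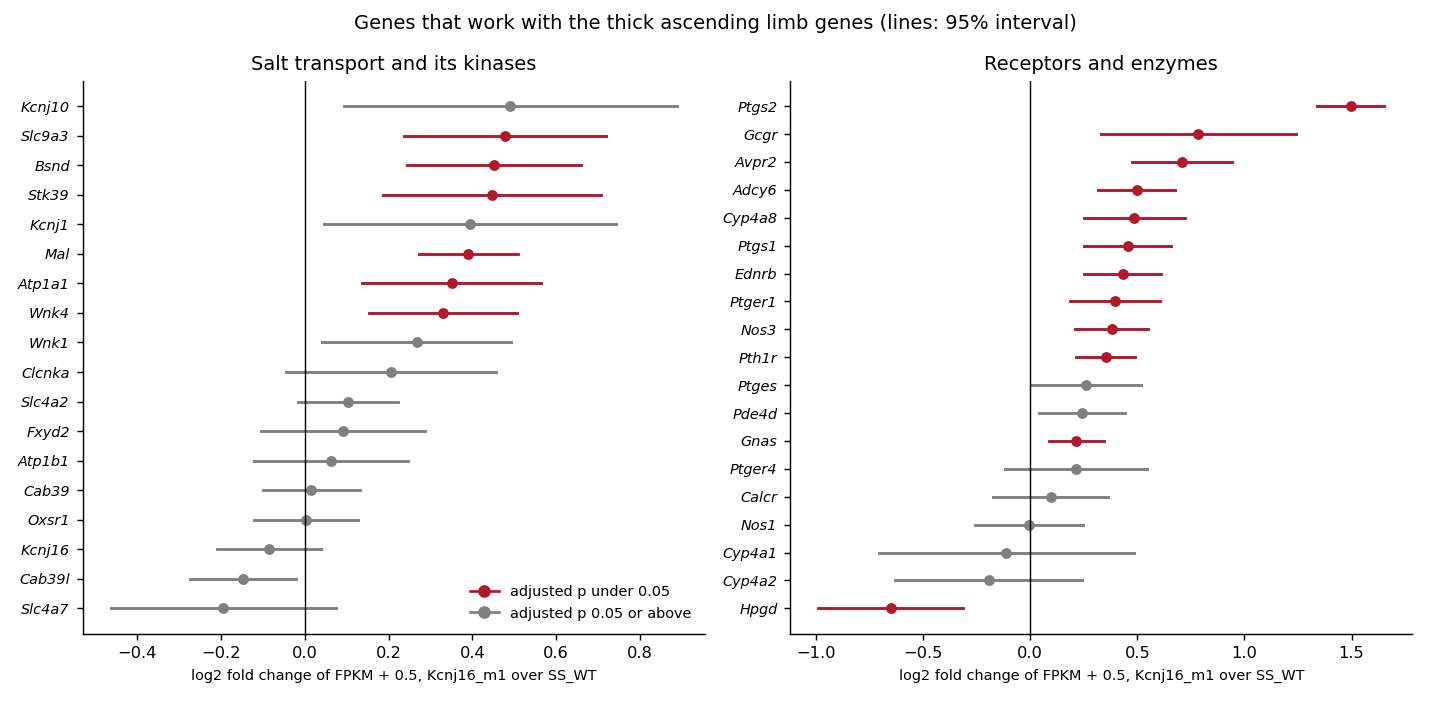
Log2 fold change of FPKM + 0.5, Kcnj16_m1 over SS_WT, for 18 of 19 and 19 of 19 tested members of 2 lists of genes that work with the thick ascending limb genes; points are estimates, lines 95% intervals, and red marks an adjusted p under 0.05. In the left panel 6 of the 18 genes drawn are red, all to the right of 0, and in the right panel 12 of 19, of which Hpgd alone is to the left.

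Other genes enriched in the segment or in the macula densa had 2 of 12 tested members higher and 2 lower, with a median log2 fold change of 0.14. That is 16.7% in each direction, close to the 14.6% higher and 14.0% lower over all genes tested. Tmem52b rose to 107 ± 4.33 FPKM in Kcnj16_m1, against 62.4 ± 9.23 FPKM in SS_WT libraries (log2 fold change 0.78, SE 0.09, limma adjusted p = 0.000309). Ppp1r1a, an inhibitor of protein phosphatase, rose by 0.49 and kept its call in 14 of the 20 alternatives, while the growth factor gene Fgf1 fell by 0.64 and the creatine kinase gene Ckb fell by 0.51 on the log2 scale. The number higher was 1 without any one of the Kcnj16_m1 libraries and reached 4 with array weights or without SS_WT replicate 1.

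Transcription factors of the loop of Henle and distal nephron had 1 of 15 tested members higher and 1 lower (6.67% each). Among all genes tested 14.6% were higher and 14.0% lower. The median log2 fold change of the list was 0.05. Emx2 fell by 0.39 on the log2 scale (limma adjusted p = 0.0229), and missed the threshold without Kcnj16_m1 replicate 3 or 4 or SS_WT replicate 2 or 5. The log2 fold change of Tfap2a was 0.34 (limma adjusted p = 0.0493), and it passed in only 7 of the 20 alternatives.

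Genes for the cleavage, folding and release of uromodulin were split, 4 of 12 tested members higher and 5 lower. The shares were 33.3% higher and 41.7% lower, against 14.6% and 14.0% over all genes tested. The median log2 fold change of the list was -0.20. Tmprss2 and Muc1 rose by log2 fold changes of 0.45 and 0.54, and so did Hpn, chosen after its values were seen, by 0.34. Hpn encodes hepsin, the protease that releases uromodulin from the cell surface, and averaged 127 ± 8.54 FPKM in Kcnj16_m1 and 102 ± 17.4 FPKM in SS_WT libraries (limma adjusted p = 0.0363). Pdia4, a protein disulfide isomerase of the endoplasmic reticulum, fell to 30.2 ± 4.14 FPKM in Kcnj16_m1, against 51.7 ± 13.9 FPKM in SS_WT libraries. The number lower ran from 3 to 7 over the alternatives, and was 7 without SS_WT replicate 3, with array weights and with voom.

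Among receptors, other ligands and targets of EGF, 3 of 13 tested genes were higher and 1 was lower. The shares were 23.1% higher and 7.69% lower, against 14.6% and 14.0% over all genes tested. The median log2 fold change of the list was 0.01. Trpm6 and Cnnm2, which serve magnesium transport, rose by 0.38 and 0.34 on the log2 scale, and Erbb3 rose by 0.24, with its call kept in 15 of the 20 alternatives. Areg, another ligand of the EGF receptor, fell to 0.542 ± 0.211 FPKM in Kcnj16_m1, against 1.37 ± 0.290 FPKM in SS_WT libraries (limma adjusted p = 0.00531). Egfr itself, chosen after its values were seen, averaged 4.42 ± 0.392 FPKM in Kcnj16_m1 and 4.62 ± 0.516 FPKM in SS_WT libraries (limma adjusted p = 0.661).

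Partners of Sostdc1 and Cyfip2 were counted beside the shares over all genes tested, 14.6% higher and 14.0% lower. The lists are too small for such counts to show whether the partners moved as groups. Of 13 tested genes of BMP and WNT signalling, 1 was higher and 1 lower (7.69% each). Grem1, another BMP antagonist, fell to 2.65 ± 0.552 FPKM in Kcnj16_m1, against 5.24 ± 1.36 FPKM in SS_WT libraries (log2 fold change -0.85, SE 0.17, limma adjusted p = 0.00422), and the WNT co-receptor gene Lrp5 rose by 0.27 on the log2 scale, a call kept in 12 of the 20 alternatives. Of 12 tested WAVE complex genes, 0 were higher and 2 lower (16.7%). Nckap1l, the subunit of blood cells, fell by 0.57 and Abi2 fell by 0.16 on the log2 scale (limma adjusted p = 0.0145 for Nckap1l and 0.0479 for Abi2). Nckap1l kept its call in all 20 alternatives and Abi2 in 7. Cyfip1, the paralogue of Cyfip2 and chosen after its values were seen, averaged 22.8 ± 0.557 FPKM in Kcnj16_m1 and 22.3 ± 1.15 FPKM in SS_WT libraries (limma adjusted p = 0.641).

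Markers of the other cells that cortex can hold also moved between the groups. The shares over all genes tested were 14.6% higher and 14.0% lower. Of proximal tubule markers 5 of 12 tested members were higher (41.7%) and 0 lower. Their summed FPKM ran from 6151 to 6636 in Kcnj16_m1 and from 4254 to 5702 in SS_WT libraries. Principal cell markers had 6 of 8 higher (75.0%), podocyte markers 7 of 8 (87.5%) and endothelial markers 5 of 7 (71.4%). None of these 3 lists had a lower gene. Intercalated cell markers had 4 of 8 higher and 3 lower, and distal convoluted and connecting tubule markers 3 of 7 higher and 2 lower. Leukocyte markers had 0 of 8 higher and 7 lower (87.5%). Their summed FPKM ran from 612 to 757 in Kcnj16_m1 and from 743 to 997 in SS_WT libraries. The part of these cells in the values of the 10 genes was not tested.

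The medulla, where the thick ascending limb is also dense, could enter a cortex sample. Of 7 tested medulla and thin limb markers 1 was higher and 1 lower (14.3% each). This is close to the 14.6% higher and 14.0% lower over all genes tested. The summed FPKM of the list ran from 68.7 to 86.2 in Kcnj16_m1 and from 67.3 to 89.4 in SS_WT libraries. Slc14a2 and Slc6a12 of this list fell under the filter on low values, were not tested, and were chosen after their values were seen. Slc14a2, the urea transporter of the inner medulla, averaged 0.0199 ± 0.0297 FPKM in Kcnj16_m1 and 0.0200 ± 0.0299 FPKM in SS_WT libraries. It had 0 to 2 reads per library in either group, too few to compare the groups. Slc6a12 averaged 0.238 ± 0.0916 FPKM in Kcnj16_m1 (8 to 24 reads) and 0.505 ± 0.148 FPKM in SS_WT libraries (16 to 35 reads). Of this list Epha7 rose by 0.53 on the log2 scale (limma adjusted p = 0.0118).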

How the data were processed

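FPKM values were calculated by the authors and deposited as a table of genes by libraries. The submitters' processing notes name featureCounts 1.5.0-p3, StringTie 1.3.3b, HISAT2 2.0.5 and fastp, with the genome build not given in the sources used here. Whether counting used strand is not stated, so genes overlapping on opposite strands are uncertain. Columns were matched to samples by the identifier in each title. The replicate numbers used here follow the order of the samples within each group and do not come from the labels. FPKM times gene length, divided by 1 step per library, gave whole reads within 0.05 for 100% of values above 0. These reads summed to between 16361516 and 23385968 in Kcnj16_m1 and between 16541364 and 16863579 in SS_WT libraries, and at least 253 stood behind each value of the 10 genes. Libraries of a group differed by more than sampling noise (chi-square per gene of 6.58 or more). The labels do not tie libraries to separate animals: p-values describe only the spread among these samples, which may be technical.

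Groups were compared on log2(FPKM + 0.5) by limma 3.58.1 (R 4.3.3), keeping genes that reached 0.5 FPKM in 5 or more libraries, with eBayes trend=TRUE and Benjamini-Hochberg adjustment over all genes tested. This scale understates changes of low genes. The 8 pathway and 9 marker lists hold 221 entries, of which 217 matched a symbol and 201 were tested; no set test was made. Named are the 10 genes, Kcnj16 and up to 4 genes per list with the smallest adjusted p, of which not all are reported here. The 10 genes and the lists were chosen with earlier results of these data known. The fit was tested on simulated data. Promoters are RefSeq's (GRCr8).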

Additional observations from a re-analysis of the deposited data

Results flagged for a closer look

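Umod in Kcnj16_m1 replicate 3 stood at 623 FPKM, below the next mutant library at 723 FPKM. Its gap to that library was 0.874 of the whole range of the group, above the value of 0.71 set for 5 libraries. This was the only one of the 20 sets of 5 values of these genes to stand apart so, and chance gives about 1 in 20. The low Umod value of SS_WT replicate 3, at 365 FPKM, had a gap of 0.709 and stayed just under it.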

How the results depend on the processing

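Over 20 alternatives (pseudocounts, filters, scalings, variance models, array weights, voom on the recovered reads, and left-out libraries) Sostdc1 and Cyfip2 kept their direction and their side of the threshold. Voom was added after the data were seen. The planned count-model tests were not run, since the deposited values are not counts. Cldn10 and Egf were past the threshold in 18 and 14 alternatives, and were higher in all 20. The alternatives that changed scaling, filter, pseudocount, variance or weights all called 4 of the 10 genes higher. With 1 library left out, the genes called higher ran from 2 (without Kcnj16_m1 replicate 4) to 5 (without SS_WT replicate 4), and the genes called lower from 0 to 1 (Cldn19, without SS_WT replicate 3). Over the same left-out libraries, all genes called higher ran from 1516 to 2364 and lower from 1473 to 2112, the pathway genes called higher from 24 to 36 and lower from 10 to 15, and the ratios to Slc12a1 past the threshold from 0 to 3. Without the 2 SS_WT libraries with the lowest identifiers, 0 ratios passed, where fewer splits raise the smallest p. No paired analysis was possible because the labels give no replicate numbers, litters or batches. Depth was not limiting for the 10 genes, each with 253 reads or more per library.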

Other observations

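On the lists of salt transport, its regulators and other genes of the segment, 6 genes fell under the filter on low values and were not tested. Pappa2, a protease of the macula densa that cleaves insulin-like growth factor binding proteins, ran from 0.194 to 0.288 FPKM in Kcnj16_m1 and from 0.0231 to 0.0568 FPKM in SS_WT libraries. The reads behind Pappa2 were 37 to 63 per library in Kcnj16_m1 and 4 to 9 in SS_WT. Cldn14, the claudin that blocks the pore of claudin-16 and claudin-19 and is induced through the calcium-sensing receptor, ran from 0.0416 to 0.613 FPKM in Kcnj16_m1 and from 0 to 0.116 FPKM in SS_WT libraries. The reads behind Cldn14 were 1 to 20 in Kcnj16_m1 and 0 to 3 in SS_WT libraries, and the groups overlapped. Wnk3, a kinase upstream of NKCC2, ran from 0.0311 to 0.0688 FPKM in Kcnj16_m1 and from 0.0635 to 0.133 FPKM in SS_WT libraries, on 3 to 9 reads in Kcnj16_m1 and 6 to 13 in SS_WT libraries. Ptger2, the prostaglandin receptor EP2, ran from 0.185 to 0.391 FPKM in Kcnj16_m1 and from 0.0302 to 0.449 FPKM in SS_WT libraries. Wfdc15b had at most 1 read in a Kcnj16_m1 library and 0 in the SS_WT libraries, and Nccrp1 had 0 reads in all 10 libraries.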
